A study of Mus musculus with 45 samples.

Results

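The expression of 42 genes of DNA replication and mitosis was followed in mouse mammary tumour cell lines that differ in metastatic potential and in lines deprived of cysteine and cystine. The members were given by symbol: 28 replication genes, with the cyclins and E2F1 that control entry into S phase, and 14 mitotic genes. All 42 were found among the 28454 genes listed, and all 42 passed the filter on low counts in every comparison, with between 142 and 29984 counts in a library. Of the 45 libraries of polyadenylated RNA, 30 came from 10 lines in control medium, 12 from LM1-LM, LM1, Myc310 and MYAZ16.1e kept for 6 h without cysteine and cystine, and 3 from MYAZ12.3i-NDI1 in control medium. Each line and medium had 3 cultures, seeded at 250000 cells per well. After 24 h the medium was changed, a step that the methods text limits to MYAZ16.1e, Myc310, LM1 and LM1-LM.

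All lines go back to tumours of MMTV-cMYC mice, in which a mammary tumour virus promoter drives the MYC oncogene in the mammary gland, so control groups carry the transgene too. MYAZ6.6g, MYAZ12.3i and MYAZ16.1e make up the MYAZ subtype. Myc310 is 1 line, from a mouse with multiple tumours. LM1, LM2 and LM3 (LM) were recovered from lungs after Myc310 cells had been injected into the mammary fat pad, and LM1-LM, LM2-LM and LM3-LM (LM-LM) from lungs after such an injection of LM1 cells. The lines from lungs thus descend from Myc310 and are not independent tumours. MYAZ12.3i-NDI1 is MYAZ12.3i expressing NDI1, a yeast NADH dehydrogenase of mitochondria. The culture medium of the lines held serum, insulin, hydrocortisone and EGF. The design text calls the cultures technical replicates, so p-values of the deprivation and NDI1 comparisons measure the spread between cultures of a line. Those between subtypes also hold the spread between lines of a subtype, with cultures counted as independent.

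The libraries held between 19517859 and 29019988 counts on genes (median 22899900). Levels are given as CPM, the counts of a gene relative to the library total, scaled with TMM factors (trimmed mean of M values) so that libraries can be compared. Krt8 and Krt18, keratins of luminal epithelium, ranged from 217 to 1731 CPM and from 94.0 to 550.0 CPM over all libraries, whereas Epcam, Cdh1 and Krt5, other epithelial markers, were under 1 CPM in every library. The leukocyte markers Ptprc, Csf1r, Lyz2 and Cd74, the endothelial markers Pecam1, Cdh5, Tek and Vwf and the alveolar markers Sftpc and Sftpb were under 1 CPM throughout. Other markers of these lists were measured above that: Cd68, of macrophages, ranged from 2.70 to 18.7 CPM, and the highest levels of Itgam, Kdr, Hopx, Ager and Napsa were 1.33, 6.36, 5.76, 1.97 and 1.24 CPM. Of the fibroblast markers, Dcn, Lum and Thy1 were under 1 CPM throughout. The highest levels of Col1a1, Col1a2, Col3a1, Pdgfra and Pdgfrb were 3.92, 1.48, 199, 58.3 and 38.5 CPM. Chac1, Asns, Trib3, Ddit3 and Atf3, genes of the response to amino acid shortage, were higher in the deprived cultures of all 4 lines. Chac1, for example, rose from a mean of 2.91 to 181 CPM in MYAZ16.1e and from 1.38 to 114 CPM in LM1. The third control library of MYAZ16.1e, the deepest of all, and the second of MYAZ12.3i carry library numbers apart from those of their groups, and results that rest on them are given without them where these change.

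Replication starts at origins that are licensed in G1, when CDC6 and CDT1 load the MCM2-7 helicase, and the helicase is switched on in S phase by CDC45, the GINS complex and MCM10. E2F transcription factors raise many of these genes as cells pass from G1 into S phase, with cyclins D and E as the upstream drivers. Mitotic genes such as Ccnb1, Plk1 and Aurka peak later, in G2 and M phase, and many carry a CHR (cell cycle genes homology region) element and CCAAT boxes in their promoters, which the DREAM and MYB-MuvB complexes and NF-Y bind. Proliferating tumour cells in culture express both groups.

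The promoter windows of members on which the results turn are shown here, 5′ to 3′ on the strand of the gene. They run from 250 bases before to 50 after a start given by RefSeq (GRCm38.p6). That start can differ from the one in the annotation used for gene positions below. The windows of Cdc6, Mcm7 and E2f1 lie inside the gene as annotated there. Capitals mark the letters TTTCCCGC, TTTGGCGC, TTTCGCGC or TTTGCCGC of E2F sites, TTTGAA of a CHR, and CCAAT, searched on both strands, so that GCGGGAAA, GCGCCAAA, GCGCGAAA, GCGGCAAA, TTCAAA and ATTGG are capitals as well. Overlapping matches of different motifs run together. Cdc6 and Mcm6 are shown because they fell in all 4 deprived lines, and Gins3 because its direction differed between lines. Their windows lie at chr11:98907901-98908200 (plus strand), chr1:128359656-128359955 (minus strand) and chr8:95633309-95633608 (plus strand).
Cdc6: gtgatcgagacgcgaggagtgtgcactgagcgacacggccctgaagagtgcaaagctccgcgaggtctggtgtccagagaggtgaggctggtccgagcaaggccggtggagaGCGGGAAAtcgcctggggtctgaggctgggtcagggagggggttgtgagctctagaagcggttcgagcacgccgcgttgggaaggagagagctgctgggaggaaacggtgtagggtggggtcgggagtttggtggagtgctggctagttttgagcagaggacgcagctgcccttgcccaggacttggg
Mcm6: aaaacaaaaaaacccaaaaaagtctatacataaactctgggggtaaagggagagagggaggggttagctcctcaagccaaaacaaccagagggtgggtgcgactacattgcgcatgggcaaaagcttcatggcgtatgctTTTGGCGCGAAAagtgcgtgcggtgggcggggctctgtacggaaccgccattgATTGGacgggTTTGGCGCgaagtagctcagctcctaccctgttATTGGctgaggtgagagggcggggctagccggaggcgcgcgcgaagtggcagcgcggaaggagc
Gins3: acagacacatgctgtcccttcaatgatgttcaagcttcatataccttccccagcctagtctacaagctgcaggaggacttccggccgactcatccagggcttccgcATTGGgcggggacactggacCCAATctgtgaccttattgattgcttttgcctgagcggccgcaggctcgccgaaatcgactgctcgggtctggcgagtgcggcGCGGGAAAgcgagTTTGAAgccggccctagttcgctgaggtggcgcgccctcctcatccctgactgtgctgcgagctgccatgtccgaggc

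Aurka and Top2a are shown because they rose in the deprived lines of the Myc310 lineage, and Plk1 because it fell in all 4 lines. Their windows lie at chr2:172370521-172370820 (minus strand), chr11:99024140-99024439 (minus strand) and chr7:122159185-122159484 (plus strand).
Aurka: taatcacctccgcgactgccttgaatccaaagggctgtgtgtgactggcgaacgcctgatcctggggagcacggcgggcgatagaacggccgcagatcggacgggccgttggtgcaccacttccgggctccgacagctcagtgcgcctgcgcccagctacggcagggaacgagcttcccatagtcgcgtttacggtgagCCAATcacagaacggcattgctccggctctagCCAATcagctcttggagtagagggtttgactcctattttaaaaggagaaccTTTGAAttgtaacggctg
Top2a: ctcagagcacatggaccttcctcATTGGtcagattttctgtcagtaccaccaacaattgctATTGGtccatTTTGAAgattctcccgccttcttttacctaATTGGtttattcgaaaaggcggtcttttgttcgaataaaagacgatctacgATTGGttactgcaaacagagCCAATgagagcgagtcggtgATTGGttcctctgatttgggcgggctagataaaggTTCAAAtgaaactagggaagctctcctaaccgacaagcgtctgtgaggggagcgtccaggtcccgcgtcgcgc
Plk1: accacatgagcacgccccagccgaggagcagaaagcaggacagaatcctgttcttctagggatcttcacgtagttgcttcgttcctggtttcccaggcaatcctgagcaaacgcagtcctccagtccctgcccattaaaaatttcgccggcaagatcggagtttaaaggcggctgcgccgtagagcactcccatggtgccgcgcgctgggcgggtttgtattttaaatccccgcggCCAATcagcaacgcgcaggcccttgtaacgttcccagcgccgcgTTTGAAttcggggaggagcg

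Promoter windows were found for 33 of the 42 members, 21 of replication and 12 of mitosis. The E2F letters were in 9 of the 21 replication windows (42.9%), those of Cdc6, Cdt1, Gins3, Mcm3, Mcm5, Mcm6, Mcm7, Pola1 and Rfc3, and in 1 of the 12 mitotic windows (8.33%), that of Cdk1. Of 27025 genes with a window, 2.6% held them. The CHR letters were in 9 of the 12 mitotic windows (75.0%) and in 3 of the 21 replication windows (14.3%), against 20.2% of all genes. All 12 mitotic windows held CCAAT, as did 14 of 21 replication windows (66.7%) and 41.1% of all genes. The same order was seen in lists of genes that are no members: E2F letters in 12 of 37 other replication genes (32.4%) and 5 of 45 other mitotic genes (11.1%), and CHR letters in 4 (10.8%) and 28 (62.2%) of them. The windows of Ccne1 and E2f1 held none of the motifs, but that of E2f1 lies inside the gene as annotated, so sequence upstream of the annotated gene was not searched. A match describes the letters only, and other letters that such an element can have were not searched.

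**Figure D1:**
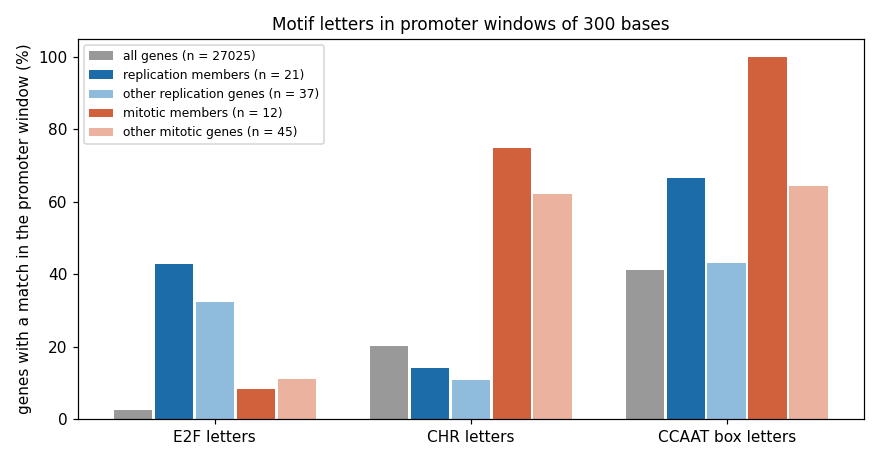
Share of genes (%, vertical axis) whose promoter window of 300 bases holds the letters of an E2F site, a CHR or a CCAAT box, for all genes and for the replication and mitotic lists (bars; n is the number of genes with a window). E2F letters are in 42.9% of replication and 8.33% of mitotic members, CHR letters in 14.3% and 75.0%.

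Most replication genes fell in the deprived cultures of all 4 lines. All 28 replication members passed the threshold in every line, an adjusted p under 0.05 in edgeR (quasi-likelihood test, Benjamini-Hochberg adjustment). All 28 were lower in deprived MYAZ16.1e cultures, and 25 were lower and 3 higher in Myc310, LM1 and LM1-LM alike. The same 25 genes were lower in all 4 lines, and Gins3, Rfc4 and Pola1 were the exceptions in each line of the Myc310 lineage. The response was broad: of the 13400 genes tested, 53.7% were called in MYAZ16.1e (27.1% lower). For the lineage, in the order Myc310, LM1, LM1-LM, the shares were 66.8%, 71.1% and 72.4% (33.9%, 35.3% and 35.9% lower). Control and deprived libraries did not overlap for 27 lower members in MYAZ16.1e and for 25 lower and 3 higher ones in each other line. Of all genes, 29.2%, 34.5%, 38.5% and 38.7% were lower without overlap in the 4 lines and 29.7%, 34.9%, 34.9% and 35.3% higher. The median log2 fold change of the replication members was -0.55 in MYAZ16.1e and -0.62, -0.67 and -0.68 along the lineage, and that of all genes tested lay between -0.01 and 0.00. In these bulk libraries fewer cells in a phase of the cell cycle and less RNA per cell cannot be told apart. Marker sums moved with deprivation in Myc310. The epithelial sum was 1383 to 1400 CPM in control and 1604 to 1640 CPM in deprived cultures. The leukocyte sums were 9.55 to 10.4 and 11.8 to 13.5 CPM, and the fibroblast sums 1.73 to 2.16 and 2.68 to 2.81 CPM. Endothelial and alveolar sums overlapped. The part of the marker genes in the responses was not tested.

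**Figure D2:**
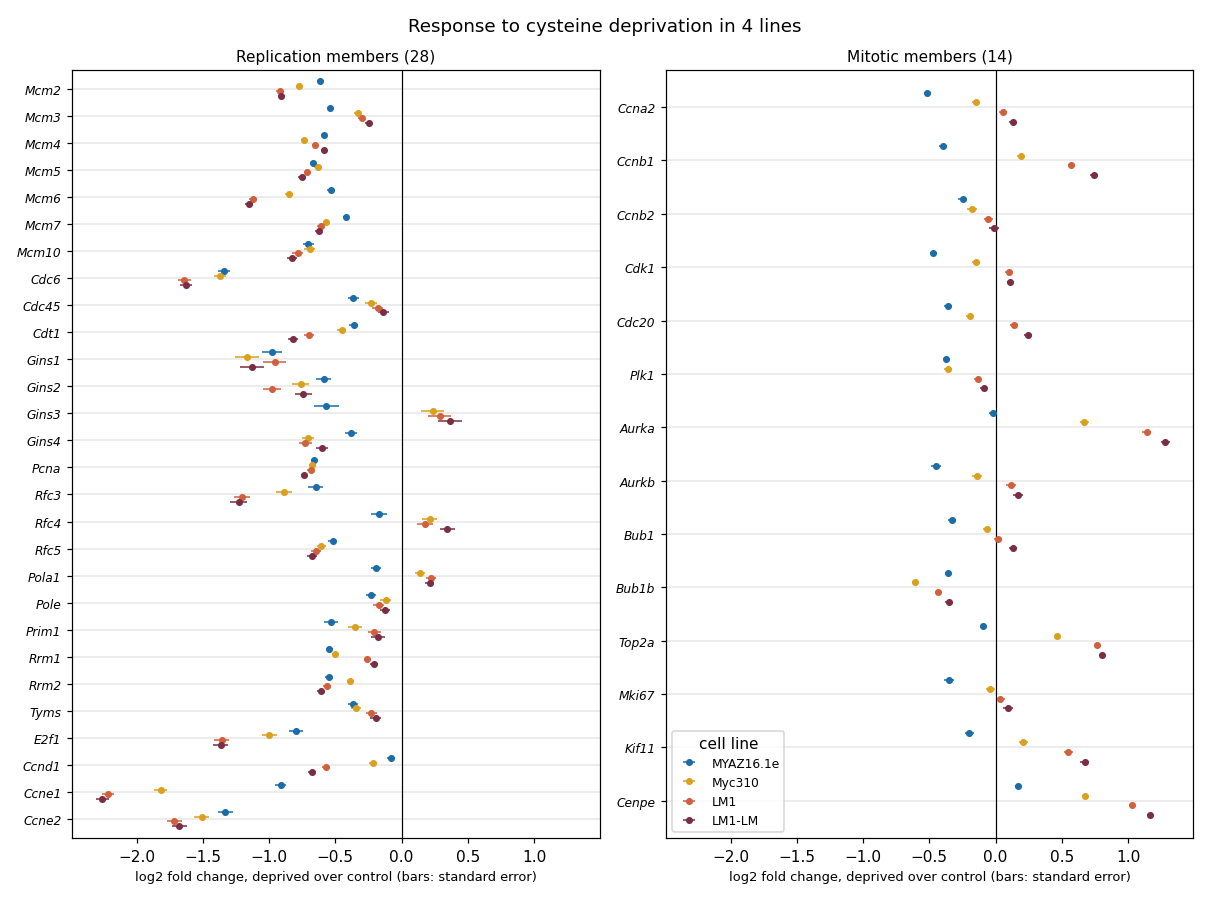
Log2 fold change (horizontal axis, deprived over control cultures) of each replication member (left) and mitotic member (right) in 4 lines (colours), with standard errors as bars. Replication members lie left of 0 except Gins3, Rfc4 and Pola1 in the Myc310 lineage, and 13 of 14 mitotic members move to the right from MYAZ16.1e over Myc310 and LM1 to LM1-LM.

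Among the licensing genes, Cdc6, whose protein brings the helicase to the origin, fell most. Cdc6 was at 75.0, 68.7 and 68.2 CPM in the control cultures of MYAZ16.1e and at 26.5, 29.6 and 27.8 CPM in the deprived ones. In Myc310, Cdc6 measured 65.4, 62.6 and 64.0 CPM in control medium and 25.2, 25.2 and 24.5 CPM under deprivation. Both lines lost more than they kept, and control and deprived cultures were well apart. LM1 had Cdc6 at 72.2, 72.2 and 73.5 CPM in control and 23.7, 23.0 and 21.5 CPM in deprived cultures. LM1-LM had it at 71.5, 69.1 and 71.7 CPM and 21.1, 23.2 and 22.8 CPM. Its log2 fold changes were -1.34 ± 0.046, -1.37 ± 0.047, -1.64 ± 0.048 and -1.63 ± 0.047 (SE) in the order of the lines given (edgeR adjusted p between 2.53e-23 and 8.60e-21), and no deprived library reached a control library.

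Cdt1, the partner of CDC6 in loading, fell less. The MYAZ16.1e cultures held 123, 128 and 126 CPM of Cdt1 in control medium and 95.6, 102 and 96.3 CPM after deprivation. Myc310 had Cdt1 at 108, 109.9 and 104 CPM with cystine and at 81.4, 74.9 and 80.8 CPM without. The loss was small beside that of Cdc6, but the groups did not overlap. In LM1, Cdt1 was at 108, 109 and 104 CPM and, deprived, at 63.1, 64.8 and 65.1 CPM. In LM1-LM, Cdt1 was at 107, 105 and 109.6 CPM and, deprived, at 61.6, 58.1 and 57.5 CPM. Cdt1 changed by -0.36 ± 0.035, -0.45 ± 0.036, -0.70 ± 0.037 and -0.82 ± 0.037 (SE) on the log2 scale in the same order (edgeR adjusted p between 1.95e-18 and 3.84e-10).

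The MCM2-7 subunits form 1 ring, and all 6 of their genes fell in all 4 lines, by unequal amounts. For Mcm6, the MYAZ16.1e libraries read 296, 299 and 289 CPM with cystine and 208, 211 and 195 CPM without. The corresponding Mcm6 values in Myc310 were 353, 343 and 353 CPM and 191, 197 and 200.0 CPM. The fall was larger in Myc310 than in MYAZ16.1e. The LM1 cultures held 352, 332 and 349.6 CPM of Mcm6 in control medium and 154, 156 and 153 CPM without cystine. Those of LM1-LM held 341, 319 and 323 CPM and 145, 145 and 141 CPM. The log2 fold changes of Mcm6 were -0.53 ± 0.030, -0.85 ± 0.030, -1.12 ± 0.030 and -1.15 ± 0.030 (SE) (edgeR adjusted p between 1.90e-24 and 1.47e-15), the largest falls of a ring subunit in the Myc310 lineage.

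In MYAZ16.1e, Mcm2 stood at 317, 312 and 313 CPM in control medium and at 201, 205 and 210.5 CPM in deprivation medium. Levels of Mcm2 in Myc310 were 329, 319 and 326 CPM in control and 187, 192 and 195 CPM in deprived cultures. Again the deprived cultures lay below all control cultures. Mcm2 in LM1 measured 262, 258 and 263 CPM in control medium and 132, 139 and 132 CPM under deprivation. Mcm2 in LM1-LM measured 262, 252 and 258 CPM and 130.5, 137 and 133 CPM. Mcm2 changed by -0.62 ± 0.026, -0.78 ± 0.026, -0.92 ± 0.027 and -0.91 ± 0.027 (SE) on the log2 scale (edgeR adjusted p between 3.08e-23 and 1.33e-18). Mcm3 went the other way across the lines: its fall was -0.54 in MYAZ16.1e and -0.25 in LM1-LM on the log2 scale, the smallest of the 6 subunits in LM1-LM. Mcm4, Mcm5 and Mcm7 changed by between -0.76 and -0.42 over the 4 lines.

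The genes that switch the helicase on split. The 4 GINS subunits work as a tetramer, and Gins1, Gins2 and Gins4 fell in all 4 lines while Gins3 fell in MYAZ16.1e only and rose in the other 3. Gins3 was at 17.5, 14.1 and 16.11 CPM in the control cultures of MYAZ16.1e and at 11.4, 10.8 and 10.0 CPM in the deprived ones. In Myc310, Gins3 measured 16.9, 18.3 and 16.12 CPM in control medium and 20.6, 19.6 and 20.7 CPM under deprivation. The direction thus turned between these lines, at a level that is low throughout. LM1 had Gins3 at 15.2, 16.3 and 16.2 CPM in control and 18.8, 16.6 and 21.5 CPM in deprived cultures. LM1-LM had it at 16.7, 13.3 and 15.3 CPM and 18.9, 19.6 and 18.5 CPM. The log2 fold changes of Gins3 were -0.57 ± 0.094, 0.23 ± 0.086, 0.29 ± 0.089 and 0.37 ± 0.088 (SE) (edgeR adjusted p between 6.03e-06 and 0.0175), and in no line did control and deprived libraries overlap. Its rises in Myc310 and LM1 lost the threshold when 1 replicate number was left out, with an edgeR adjusted p of up to 0.152 in Myc310 and 0.140 in LM1.

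In deprived MYAZ16.1e, Gins4 went from 52.6, 49.8 and 52.8 CPM to 39.3, 41.5 and 39.1 CPM, and in Myc310 from 49.7, 48.9 and 51.0 CPM to 30.3, 30.6 and 31.7 CPM. In LM1 it went from 46.6, 45.2 and 49.5 CPM to 29.5, 27.2 and 26.5 CPM, and in LM1-LM from 47.7, 45.4 and 47.0 CPM to 31.0, 30.4 and 28.6 CPM. Gins4 was lower in all deprived libraries, with log2 fold changes of -0.38 ± 0.045, -0.70 ± 0.047, -0.73 ± 0.048 and -0.60 ± 0.047 (SE). Gins1 fell by more, to log2 fold changes between -1.17 and -0.96, and Gins2 lay between -0.98 and -0.59. Mcm10, a helicase activator, fell to between -0.83 and -0.70. Cdc45, a part of the active helicase itself, fell least of this group, from -0.37 in MYAZ16.1e to -0.14 in LM1-LM, and that last call was lost without the third replicates (edgeR adjusted p = 0.0677).

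At the fork, Pcna, the sliding clamp of the polymerases, fell by nearly the same amount in each line. The MYAZ16.1e cultures held 514, 507 and 528 CPM of Pcna in control medium and 332, 331 and 319 CPM after deprivation. Myc310 had Pcna at 361, 365 and 365 CPM with cystine and at 228, 236 and 227 CPM without. Both lines started from different levels, and both were lower without cystine. In LM1, Pcna was at 364, 353 and 362 CPM and, deprived, at 215, 219.7 and 219 CPM. In LM1-LM, Pcna was at 366, 347 and 357 CPM and, deprived, at 209, 207 and 209.5 CPM. Pcna had log2 fold changes of -0.66 ± 0.024, -0.67 ± 0.024, -0.69 ± 0.025 and -0.74 ± 0.025 (SE) (edgeR adjusted p between 7.35e-22 and 2.67e-20). The differences between the responses of the other lines and that of MYAZ16.1e were between -0.07 and -0.01 and passed no threshold.

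The clamp loader subunits differed among themselves. Rfc3 fell in all 4 lines, to -0.65 in MYAZ16.1e and -1.23 in LM1-LM, and Rfc5 fell to between -0.68 and -0.52. Rfc4 changed by -0.17 ± 0.059, 0.21 ± 0.058, 0.18 ± 0.059 and 0.35 ± 0.059 (SE) in the 4 lines, and its calls in MYAZ16.1e and LM1 were lost without the third replicates (edgeR adjusted p = 0.0804 and 0.0638), in LM1 also with upper-quartile scaling (0.141). Pola1, the catalytic subunit of polymerase alpha, which starts each strand with the primase PRIM1, changed by -0.19 ± 0.037, 0.14 ± 0.035, 0.22 ± 0.036 and 0.21 ± 0.036 (SE). In MYAZ16.1e it went from 90.5, 91.1 and 95.7 CPM to 82.4, 78.6 and 83.0 CPM, and in LM1-LM from 106, 102 and 101 CPM to 118, 119 and 111 CPM. In Myc310 it went from 106, 107 and 109 CPM to 116, 123 and 118 CPM, and in LM1 from 112, 107 and 106 CPM to 119, 127 and 123 CPM. The direction of Pola1 in MYAZ16.1e was therefore opposite to that in the Myc310 lineage. Prim1 was lower in all 4 lines, from -0.53 in MYAZ16.1e to -0.18 in LM1-LM (edgeR adjusted p = 0.105 in LM1-LM without the third replicates), and so was Pole, the leading strand polymerase, between -0.23 and -0.12.

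Of the genes that supply deoxynucleotides, Rrm2, the small subunit of ribonucleotide reductase, had the highest level of all members per kb of exon in control medium, 279.9 CPM per kb, against 5.80 for Gins2, the lowest. For Rrm2, the MYAZ16.1e libraries read 568, 572 and 581 CPM with cystine and 394, 402 and 385 CPM without. The corresponding Rrm2 values in Myc310 were 783, 759.8 and 768 CPM and 593, 577 and 611 CPM. Rrm2 fell in both lines although Myc310 began at the higher level. The LM1 cultures held 857, 842 and 859 CPM of Rrm2 in control medium and 545, 569 and 572 CPM without cystine. Those of LM1-LM held 875, 882 and 914 CPM and 584, 559.6 and 561 CPM. On the log2 scale Rrm2 changed by -0.55 ± 0.026, -0.39 ± 0.025, -0.57 ± 0.026 and -0.61 ± 0.026 (SE) (edgeR adjusted p between 2.17e-19 and 2.40e-14). Rrm1, the large subunit, fell by less in LM1 and LM1-LM (-0.26 and -0.21) than in MYAZ16.1e (-0.55), and the differences of 0.29 and 0.34 passed the threshold (edgeR adjusted p = 2.45e-07 and 1.06e-08). Tyms, which makes thymidylate, ranged from -0.37 to -0.20.

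The E cyclins, which activate CDK2 at the end of G1, fell in all 4 lines, and Ccne1 showed the largest fall of all members in the Myc310 lineage. In MYAZ16.1e, Ccne1 stood at 68.6, 66.7 and 68.2 CPM in control medium and at 36.2, 38.9 and 33.6 CPM in deprivation medium. Levels of Ccne1 in Myc310 were 59.4, 61.2 and 60.5 CPM in control and 17.7, 17.4 and 16.7 CPM in deprived cultures. The Myc310 cultures kept a smaller share of their control level than those of MYAZ16.1e. Ccne1 in LM1 measured 74.0, 76.7 and 75.8 CPM in control medium and 15.5, 16.8 and 15.3 CPM under deprivation. Ccne1 in LM1-LM measured 79.0, 78.6 and 78.6 CPM and 15.7, 16.8 and 15.6 CPM. The log2 fold changes of Ccne1 were -0.91 ± 0.043, -1.82 ± 0.048, -2.22 ± 0.048 and -2.26 ± 0.048 (SE) (edgeR adjusted p between 6.45e-27 and 2.16e-17), and 79.1% of the control level was lost in LM1-LM.

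Ccne2 was at 74.6, 82.5 and 80.3 CPM in the control cultures of MYAZ16.1e and at 30.8, 32.6 and 31.5 CPM in the deprived ones. In Myc310, Ccne2 measured 104, 98.6 and 108 CPM in control medium and 39.9, 35.4 and 34.7 CPM under deprivation. Ccne2 fell in MYAZ16.1e by more than Ccne1 did. LM1 had Ccne2 at 114, 104 and 108 CPM in control and 30.5, 35.5 and 30.5 CPM in deprived cultures. LM1-LM had it at 102, 112 and 107 CPM and 33.02, 33.4 and 31.2 CPM. Across the lines Ccne2 changed by -1.33 ± 0.058, -1.51 ± 0.056, -1.72 ± 0.057 and -1.68 ± 0.056 (SE) on the log2 scale (edgeR adjusted p between 7.32e-22 and 3.17e-18), with no overlap of the media in any line.

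E2f1, an activator of the S phase genes, moved in the same direction. The MYAZ16.1e cultures held 60.2, 60.7 and 56.1 CPM of E2f1 in control medium and 32.1, 33.9 and 36.1 CPM after deprivation. Myc310 had E2f1 at 46.2, 45.4 and 46.1 CPM with cystine and at 23.3, 21.8 and 24.4 CPM without. Control and deprived cultures did not overlap in either line. In LM1, E2f1 was at 57.4, 49.8 and 55.1 CPM and, deprived, at 21.4, 20.6 and 19.6 CPM. In LM1-LM, E2f1 was at 59.7, 55.5 and 57.6 CPM and, deprived, at 20.9, 22.5 and 22.09 CPM. For E2f1 the log2 fold changes were -0.79 ± 0.053, -0.9996 ± 0.057, -1.36 ± 0.058 and -1.36 ± 0.056 (SE) (edgeR adjusted p between 1.45e-19 and 8.56e-14).

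Ccnd1, the D cyclin that growth factors induce, hardly moved in MYAZ16.1e. For Ccnd1, the MYAZ16.1e libraries read 432, 430.5 and 416 CPM with cystine and 396, 419 and 399 CPM without. The corresponding Ccnd1 values in Myc310 were 434, 442 and 419 CPM and 366, 382 and 379 CPM. The fall in MYAZ16.1e was -0.08 on the log2 scale, and its call was lost without the first replicates (edgeR adjusted p = 0.176). The LM1 cultures held 426, 442 and 432 CPM of Ccnd1 in control medium and 283, 293 and 278 CPM without cystine. Those of LM1-LM held 438, 465 and 456 CPM and 271, 276 and 281 CPM. Over the 4 lines Ccnd1 changed by -0.08 ± 0.028, -0.22 ± 0.028, -0.57 ± 0.028 and -0.68 ± 0.028 (SE) (edgeR adjusted p between 2.22e-19 and 0.0167), and its lowest levels were in deprived LM1 and LM1-LM cultures.

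**Figure D3:**
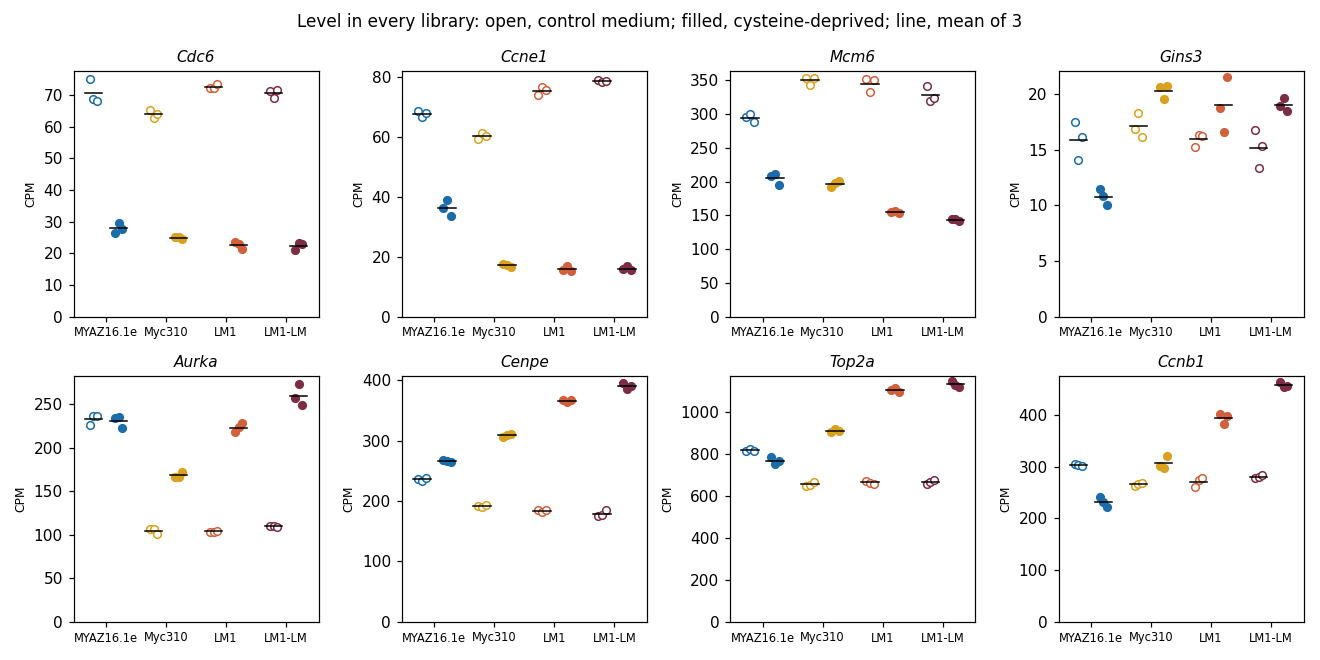
CPM (vertical axis, from 0) of 8 members in each library of 4 lines; open points are control and filled points deprived cultures, and lines are means of 3. Cdc6, Ccne1 and Mcm6 are lower in every deprived library, Gins3 turns direction between MYAZ16.1e and the other lines, and Aurka, Cenpe, Top2a and Ccnb1 are higher in the deprived cultures of Myc310, LM1 and LM1-LM.

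The mitotic genes did not follow the replication genes. In MYAZ16.1e 12 of the 14 mitotic members fell and 1 rose, with a median log2 fold change of -0.35. In Myc310 7 fell and 5 rose (median -0.10), in LM1 2 fell and 8 rose (median 0.11), and in LM1-LM 2 fell and 11 rose (median 0.15). Of all genes, 26.6%, 32.8%, 35.8% and 36.5% were called higher in these lines. Without overlap of libraries 1, 5, 8 and 10 mitotic members were higher and 12, 6, 2 and 2 lower. Plk1 and Bub1b fell in all 4 lines and Cenpe rose in all 4. Upper-quartile scaling, which shifted the median of all genes in LM1 to -0.08, gave 5 higher and 3 lower mitotic members there and 7 and 3 in LM1-LM. With this scaling 31.6% of all genes were called higher and 39.6% lower in LM1, and 32.0% and 40.3% in LM1-LM. Under it Ccnb2 was called lower in both lines, and Cdk1 lost its call in both (edgeR adjusted p = 0.492 and 0.341). The rises of Aurka, Cenpe, Top2a, Ccnb1 and Kif11 in LM1 and LM1-LM held under all alternatives run.

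Cyclin B1 is the main partner of CDK1 at entry into mitosis, and its gene turned direction between the lines. In MYAZ16.1e, Ccnb1 stood at 304, 304 and 301 CPM in control medium and at 240.4, 232 and 221 CPM in deprivation medium. Levels of Ccnb1 in Myc310 were 263, 267 and 269 CPM in control and 300.4, 297 and 321 CPM in deprived cultures. Ccnb1 fell in MYAZ16.1e and rose in Myc310, without overlap in either. Ccnb1 in LM1 measured 261, 275 and 277 CPM in control medium and 401, 382 and 398 CPM under deprivation. Ccnb1 in LM1-LM measured 279, 279 and 284 CPM and 463, 453 and 456 CPM. Ccnb1 changed by -0.39 ± 0.030, 0.19 ± 0.030, 0.57 ± 0.029 and 0.74 ± 0.029 (SE) on the log2 scale (edgeR adjusted p between 4.53e-20 and 1.67e-06).

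Cdk1, the mitotic kinase itself, moved in the same order by less. Cdk1 was at 213, 222 and 221 CPM in the control cultures of MYAZ16.1e and at 167, 157 and 152 CPM in the deprived ones. In Myc310, Cdk1 measured 203, 196 and 199 CPM in control medium and 187, 178 and 180.3 CPM under deprivation. It fell in both lines, by less in Myc310. LM1 had Cdk1 at 206, 207 and 202 CPM in control and 211, 212 and 220.0 CPM in deprived cultures. LM1-LM had it at 219, 215 and 215 CPM and 229.7, 223 and 229 CPM. Cdk1 changed by -0.47 ± 0.029, -0.15 ± 0.029, 0.10 ± 0.028 and 0.11 ± 0.028 (SE) on the log2 scale (edgeR adjusted p between 1.29e-14 and 0.00247), and its call in LM1 was lost without the third replicates (0.129).

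Ccna2, which serves both S phase and mitosis, fell in the lines not from lung. The MYAZ16.1e cultures held 378, 368 and 381 CPM of Ccna2 in control medium and 277, 254 and 260.0 CPM after deprivation. Myc310 had Ccna2 at 298, 295 and 299.9 CPM with cystine and at 278, 267 and 267 CPM without. The log2 falls were -0.52 and -0.15. In LM1, Ccna2 was at 285, 286 and 294 CPM and, deprived, at 301, 293 and 283 CPM. In LM1-LM, Ccna2 was at 289.5, 295 and 286 CPM and, deprived, at 310.4, 309 and 308 CPM. The log2 fold change was 0.06 in LM1 (edgeR adjusted p = 0.0741) and 0.13 in LM1-LM (edgeR adjusted p = 1.14e-04, and 0.129 with upper-quartile scaling).

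Among the mitotic kinases, Aurka, which builds the spindle poles, rose most. For Aurka, the MYAZ16.1e libraries read 226, 236 and 237 CPM with cystine and 235, 235 and 223 CPM without. The corresponding Aurka values in Myc310 were 107, 106 and 101 CPM and 167, 166 and 172 CPM. In MYAZ16.1e the log2 fold change was -0.02 (edgeR adjusted p = 0.578), whereas in Myc310 every deprived library was above every control library. The LM1 cultures held 104, 103 and 105 CPM of Aurka in control medium and 218, 223 and 228 CPM without cystine. Those of LM1-LM held 110.2, 110.1 and 109 CPM and 257, 274 and 249 CPM. The log2 fold changes were 0.67 ± 0.032, 1.14 ± 0.032 and 1.28 ± 0.031 along the lineage (SE; edgeR adjusted p between 3.24e-25 and 1.28e-17). The control level of Aurka in MYAZ16.1e was above that of the 3 other lines, and the deprived levels of LM1 and LM1-LM lay near or above it.

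Plk1, the kinase that acts from mitotic entry to cytokinesis, fell in all 4 lines. In MYAZ16.1e, Plk1 stood at 224, 229 and 228 CPM in control medium and at 177, 178 and 174 CPM in deprivation medium. Levels of Plk1 in Myc310 were 198, 196 and 195 CPM in control and 149.7, 153 and 161 CPM in deprived cultures. MYAZ16.1e and Myc310 fell by nearly the same amount. Plk1 in LM1 measured 173, 183 and 186 CPM in control medium and 161, 161 and 159.7 CPM under deprivation. Plk1 in LM1-LM measured 192, 187 and 182 CPM and 173, 172 and 168 CPM. Its log2 fold changes were -0.37 ± 0.028, -0.36 ± 0.028, -0.14 ± 0.029 and -0.09 ± 0.028 (SE) (edgeR adjusted p between 1.56e-12 and 0.00531), so that the falls in LM1 and LM1-LM were the smaller ones. Aurkb, the kinase of the chromosomal passenger complex, changed by -0.45 ± 0.038, -0.14 ± 0.039, 0.12 ± 0.039 and 0.17 ± 0.039 (SE), and its call in LM1 was lost with upper-quartile scaling and without the first or the second replicates (edgeR adjusted p between 0.0549 and 0.370), and its call in Myc310 without the second (0.127).

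The checkpoint genes Bub1 and Bub1b, whose products hold anaphase until all kinetochores are attached, differed from each other. Bub1b fell in all 4 lines, by -0.36 ± 0.024, -0.60 ± 0.025, -0.43 ± 0.025 and -0.35 ± 0.025 (SE) on the log2 scale, and was the member of the mitotic group that did not follow the order of the lines. Bub1 fell in MYAZ16.1e (-0.33), had values of -0.06 and 0.02 in Myc310 and LM1 (edgeR adjusted p = 0.0802 and 0.565) and rose in LM1-LM (0.13). That rise of Bub1 was lost with upper-quartile scaling and without the first replicates (edgeR adjusted p = 0.137 and 0.0582), and in Myc310 Bub1 passed as lower with that scaling and without the third replicates (0.00786 and 0.0172). Cdc20, which releases anaphase, fell in MYAZ16.1e and Myc310 (-0.36 and -0.20) and rose in LM1 and LM1-LM (0.14 and 0.24). The call of Cdc20 in LM1 was lost with upper-quartile scaling (edgeR adjusted p = 0.0634).

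Cenpe, Top2a and Kif11 rose in all 3 lines of the Myc310 lineage. Cenpe encodes the kinetochore motor that moves chromosomes to the spindle equator. Cenpe was at 236, 234 and 238 CPM in the control cultures of MYAZ16.1e and at 267, 266 and 265 CPM in the deprived ones. In Myc310, Cenpe measured 191, 189.8 and 194 CPM in control medium and 306, 309 and 311 CPM under deprivation. Cenpe was the mitotic member that rose in both lines. LM1 had Cenpe at 185, 182 and 184 CPM in control and 367, 364 and 368 CPM in deprived cultures. LM1-LM had it at 176, 177 and 184 CPM and 396, 385 and 389.7 CPM. Log2 fold changes of Cenpe were 0.17 ± 0.022, 0.68 ± 0.022, 1.03 ± 0.022 and 1.16 ± 0.022 (SE) (edgeR adjusted p between 6.08e-28 and 1.91e-07).

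Top2a, the topoisomerase that untangles sister chromatids, fell slightly in MYAZ16.1e and rose in the other lines. The MYAZ16.1e cultures held 815, 825 and 813 CPM of Top2a in control medium and 785, 752 and 764 CPM after deprivation. Myc310 had Top2a at 647, 652 and 664 CPM with cystine and at 904, 916 and 909 CPM without. The rise in Myc310 left no overlap between media. In LM1, Top2a was at 671, 663 and 659 CPM and, deprived, at 1105, 1113 and 1093 CPM. In LM1-LM, Top2a was at 658, 665 and 677 CPM and, deprived, at 1146, 1129 and 1119 CPM. Top2a thus had log2 fold changes of -0.10 ± 0.021, 0.46 ± 0.021, 0.77 ± 0.021 and 0.80 ± 0.021 (SE) (edgeR adjusted p between 1.40e-24 and 2.11e-04). Kif11, the motor that pushes the spindle poles apart, showed the same pattern with -0.20 ± 0.033, 0.21 ± 0.032, 0.55 ± 0.033 and 0.67 ± 0.032 (SE).

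Mki67, which coats mitotic chromosomes and is the usual marker of cycling cells, differed little between the media in the Myc310 lineage. For Mki67, the MYAZ16.1e libraries read 546, 576 and 554 CPM with cystine and 442, 432 and 445 CPM without. The corresponding Mki67 values in Myc310 were 562, 564 and 590.0 CPM and 564, 554 and 567 CPM. It fell in MYAZ16.1e (-0.35), and the log2 fold change in Myc310 was -0.04 (edgeR adjusted p = 0.337). The LM1 cultures held 649.9, 672 and 658 CPM of Mki67 in control medium and 672, 656 and 654 CPM without cystine. Those of LM1-LM held 608, 614 and 707 CPM and 660.2, 684 and 663 CPM. The values were 0.04 in LM1 (edgeR adjusted p = 0.358) and 0.10 in LM1-LM (edgeR adjusted p = 0.0173). The LM1-LM call was lost with RLE and upper-quartile scaling, with DESeq2, without the first or the second replicates and in a fit of the LM1-LM libraries alone (adjusted p between 0.0546 and 0.765). Ccnb2 was the remaining mitotic member, with -0.25 ± 0.037, -0.18 ± 0.036, -0.05 ± 0.036 and -0.01 ± 0.035 (SE) in the 4 lines, of which the first and the second passed the threshold.

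Responses are also given by promoter letters. The 9 replication members with E2F letters had median log2 fold changes of -0.54, -0.57, -0.70 and -0.76 from MYAZ16.1e to LM1-LM, and the 12 without had -0.55, -0.55, -0.61 and -0.64. Gins3 and Pola1, which rose in the Myc310 lineage, hold E2F letters, as Cdc6 and Mcm6 do, and Rfc4, which rose there too, holds none of the motifs. The 9 mitotic members with CHR letters had medians of -0.35, -0.15, 0.10 and 0.11. The 3 without, Bub1, Ccnb1 and Cenpe, had -0.33, 0.19, 0.57 and 0.74. These are descriptions of few genes, with no test.

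Whether the lines responded differently was tested as the difference between each line's response and that of MYAZ16.1e. The 3 differences share the MYAZ16.1e libraries. The mitotic response was higher than in MYAZ16.1e for 11 of 14 members in Myc310 (19.8% of all genes were called higher and 40.3% in either direction), for 13 in LM1 (26.9% and 52.2%) and for 13 in LM1-LM (28.4% and 54.8%). It was lower only for Bub1b, in Myc310. In LM1 and LM1-LM edgeR called none lower, with 1 and 0 at an unadjusted p under 0.05 and 1 and 0 called by DESeq2. The median difference over the mitotic members was 0.32, 0.57 and 0.61 on the log2 scale for these lines, and that over all genes lay between -0.02 and 0.01. Of the 28 replication members, 6 were higher and 9 lower in Myc310, and 8 and 13 in both LM1 and LM1-LM (20.4%, 25.3% and 26.4% of all genes were called lower), with medians of -0.06, -0.07 and -0.14. With upper-quartile scaling the last pairs of counts were 6 and 18 in LM1 and 7 and 18 in LM1-LM. Over all genes the split moved the same way, to 21.4% higher and 30.8% lower in LM1 and 22.7% and 31.9% in LM1-LM.

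Aurka had the largest difference among mitotic members, 0.69 ± 0.044, 1.16 ± 0.044 and 1.30 ± 0.043 (SE) in Myc310, LM1 and LM1-LM (edgeR adjusted p between 1.28e-20 and 2.19e-13). For Ccnb1 the differences were 0.58 ± 0.042, 0.97 ± 0.042 and 1.14 ± 0.042 (edgeR adjusted p between 1.04e-19 and 3.32e-12), for Cenpe 0.51 ± 0.031, 0.86 ± 0.032 and 1.00 ± 0.031, and for Top2a 0.56 ± 0.029, 0.87 ± 0.029 and 0.90 ± 0.029. These 4 genes thus rose relative to the MYAZ16.1e response in each of the 3 lines. Ccne1 had the largest difference among replication members in the downward direction, -0.91 ± 0.065, -1.30 ± 0.065 and -1.35 ± 0.065 (edgeR adjusted p between 6.44e-17 and 3.14e-12), and for Mcm6 the differences were -0.32 ± 0.042, -0.59 ± 0.042 and -0.62 ± 0.042. Gins3 had the largest upward one, 0.80 ± 0.13, 0.86 ± 0.13 and 0.94 ± 0.13 (edgeR adjusted p between 2.71e-07 and 6.53e-06). Gins4 differed by -0.33 ± 0.065, -0.35 ± 0.066 and -0.22 ± 0.065.

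Along the lineage, the response of LM1 was set against that of Myc310, from which LM1 came, and the response of LM1-LM against that of LM1. These contrasts were added after the values were seen. Between LM1 and Myc310, 11 of 14 mitotic members were higher, and none was lower by edgeR, by DESeq2 or at an unadjusted p under 0.05. Of the replication members 1 was higher and 9 were lower, and 24.5% of all genes were called (14.5% higher and 9.96% lower). Without the third replicates 6 replication members and 2168 of 13443 genes were called. Aurka differed by 0.47, Ccnb1 by 0.38, Cenpe by 0.35 and Top2a by 0.31 on the log2 scale, and Ccne1 by -0.40 and Mcm6 by -0.27. Between LM1-LM and LM1 0.769% of all genes were called (0.328% higher and 0.44% lower). No replication member passed in edgeR or DESeq2 (values between -0.17 and 0.24, 4 at an unadjusted p under 0.05), and of the mitotic members Ccnb1 (0.17) and Cenpe (0.13) did. At an unadjusted p under 0.05 there were 7 mitotic members, all higher in LM1-LM. Both calls were lost whichever replicate number was left out, and the other 12 mitotic members did not pass after adjustment. Without replicates 1, 2 and 3 in turn, the share of all genes called fell to 0.0298%, 0.0371% and 0.327%.

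The other genes of the same processes gave the same split. Of 43 further replication genes, 33 fell and 2 rose in MYAZ16.1e, 30 fell and 7 rose in Myc310, 30 and 9 in LM1, and 31 and 9 in LM1-LM. Dna2, a nuclease of lagging strand synthesis, fell by 1.86 in Myc310, by 2.59 in LM1 and by 2.66 in LM1-LM on the log2 scale, and Orc5, a subunit of the origin recognition complex, rose by 0.35, 0.66, 0.75 and 0.83 in the 4 lines. Of 53 further mitotic genes, 46 fell and 1 rose in MYAZ16.1e, but 18 fell and 29 rose in Myc310, 11 and 34 in LM1, and 11 and 38 in LM1-LM. Ndc80, of the outer kinetochore, was the one that rose in MYAZ16.1e, by 0.37, and rose by 1.20, 1.62 and 1.66 in Myc310, LM1 and LM1-LM, and Nusap1, which bundles spindle microtubules, by 1.12, 1.60 and 1.77. Mybl2, the MYB factor of the late cell cycle genes, fell by 0.81, 1.20, 1.72 and 1.95 in the 4 lines.

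Against MYAZ16.1e, the response of 42 of the 53 further mitotic genes was higher and of 1 lower in Myc310, 47 and 2 in LM1, and 47 and 3 in LM1-LM. Of 21 further controllers of the passage from G1 to S phase, 13 fell and 3 rose in MYAZ16.1e, and 12 fell in each of the other lines, where 6, 5 and 4 rose. Skp2, which targets the inhibitor p27 for destruction, fell by 1.35, 2.13, 2.31 and 2.26 on the log2 scale. Cdkn1a, the gene of the CDK inhibitor p21, rose by 1.70, 1.23, 1.64 and 1.64.

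In control medium, without deprivation, many mitotic members were lower in the subtypes of higher metastatic potential than in MYAZ. The model held subtype only, over the 30 control libraries. Of the 14 mitotic members, 7 were lower in Myc310 and 11 in both LM and LM-LM, and none was higher by edgeR, by DESeq2 or at an unadjusted p under 0.05, where 27.1%, 30.5% and 32.3% of 13795 genes were called lower (50.9%, 60.8% and 62.8% in either direction). The medians of the mitotic members were -0.18, -0.27 and -0.21, and of all genes between -0.02 and 0.00. Replication members went both ways: 7 higher and 3 lower in Myc310, 13 and 6 in LM, and 10 and 7 in LM-LM, with 23.8%, 30.3% and 30.5% of all genes called higher. Without overlap between libraries of MYAZ and the subtype, 8, 6 and 5 replication members were higher and 3, 3 and 4 lower, and 6, 8 and 6 mitotic members were lower. Of all genes, 21.6%, 13.0% and 13.1% were higher and 23.1%, 14.5% and 13.9% lower in this way. This model counts cultures of a line as independent. With counts summed per line, 2, 7 and 5 replication and 3, 7 and 7 mitotic members were called, where 8.92%, 23.6% and 26.4% of 16017 genes were. Those replication members were 1 higher and 1 lower in Myc310, 5 and 2 in LM, and 2 and 3 in LM-LM. Without MYAZ16.1e, 17 replication members were called in Myc310, where 56.8% of all genes were. With MYAZ16.1e as the only MYAZ line most calls were lower, with 8 replication members higher and 13 lower in Myc310, 8 and 12 in LM1, and 9 and 13 in LM1-LM, where 71.2%, 71.9% and 72.0% of all genes were called.

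Aurka had the largest difference of the mitotic members. Its lowest, median and highest levels were 196, 211 and 237 CPM in the 9 MYAZ libraries, and it stood at 107, 106 and 101 CPM in Myc310. The corresponding LM levels were 92.2, 102 and 112 CPM, and those of LM-LM 108, 110.2 and 123 CPM. No library of the Myc310 lineage reached the lowest MYAZ library. Against MYAZ, Aurka changed by -1.04 ± 0.060 for Myc310, -1.08 ± 0.040 for LM and -0.93 ± 0.040 for LM-LM on the log2 scale (SE; edgeR adjusted p between 1.38e-19 and 1.14e-14). With counts summed per line the edgeR adjusted p was 0.00287, 1.48e-04 and 2.73e-04.

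Bub1 was the next of the mitotic members, with lowest, median and highest levels of 185, 198 and 225 CPM in MYAZ and 123, 122 and 121 CPM in Myc310. LM libraries held 105, 116 and 133 CPM of Bub1 and LM-LM libraries 111, 125 and 136 CPM, again without overlap with MYAZ. Bub1 had log2 fold changes of -0.75 ± 0.072 for Myc310, -0.79 ± 0.049 for LM and -0.76 ± 0.049 for LM-LM (SE; edgeR adjusted p between 1.81e-14 and 6.99e-10), and 0.0172, 0.00107 and 0.0013 was the adjusted p with counts summed per line. Bub1b was lower as well, by -0.60, -0.57 and -0.49. Plk1 and Ccna2 were lower in all 3 subtypes, at -0.25 to -0.31 and -0.27 to -0.38. With counts summed per line the calls of Plk1 and Ccna2 in Myc310 were lost (edgeR adjusted p = 0.172 and 0.129), and their calls in LM and LM-LM and those of Bub1b in all 3 subtypes were kept. Ccnb2, Top2a and Mki67 passed in none of them, with values between -0.13 and 0.11.

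Of the replication members, Gins1 was lower in the Myc310 lineage. MYAZ libraries had 24.8, 28.3 and 33.2 CPM as lowest, median and highest, Myc310 had 16.7, 16.7 and 17.1 CPM, LM 15.9, 17.7 and 19.7 CPM and LM-LM 14.9, 17.7 and 21.0 CPM. The groups did not overlap, and the log2 fold changes were -0.77 ± 0.097 for Myc310, -0.71 ± 0.066 for LM and -0.73 ± 0.066 for LM-LM (SE; edgeR adjusted p between 7.69e-11 and 1.42e-07). Pcna and Tyms were lower too, by -0.35, -0.36 and -0.46 and by -0.32, -0.34 and -0.36. With counts summed per line Gins1 kept its 3 calls (edgeR adjusted p = 0.0365, 0.00492 and 0.00395). Pcna then had an edgeR adjusted p of 0.170, 0.0338 and 0.0121, and Tyms, at 0.283, 0.0711 and 0.0578, passed in none.

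Rrm2 was higher. Its lowest, median and highest levels were 472, 531 and 581 CPM in MYAZ, and Myc310 libraries held 783, 759.8 and 768 CPM. LM libraries held 842, 861 and 897 CPM and LM-LM libraries 875, 929 and 1001 CPM. Every library of the Myc310 lineage was above every MYAZ library, and the log2 fold changes were 0.53 ± 0.050 for Myc310, 0.71 ± 0.036 for LM and 0.79 ± 0.036 for LM-LM (SE; edgeR adjusted p between 2.32e-17 and 5.00e-10), with 0.0208, 7.25e-04 and 4.25e-04 as the adjusted p with counts summed per line.

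Pola1 varied between the MYAZ lines themselves. Its lowest, median and highest levels were 43.2, 64.4 and 95.7 CPM in MYAZ, 97.8, 105 and 112 CPM in LM and 96.4, 103 and 106 CPM in LM-LM, and Myc310 held 106, 107 and 109 CPM. The line means went from 45.4 CPM in MYAZ12.3i to 92.4 CPM in MYAZ16.1e, and reached 108 CPM in LM1. Its log2 fold changes against MYAZ were 0.66 ± 0.15 for Myc310, 0.63 ± 0.11 for LM and 0.59 ± 0.11 for LM-LM (SE; edgeR adjusted p between 1.72e-05 and 5.75e-04), but with counts summed per line the adjusted p was 0.174, 0.0571 and 0.0637. Ccne2 ranged over 52.9, 73.5 and 82.5 CPM (lowest, median and highest) in MYAZ and was at 104, 98.6 and 108 CPM in Myc310. It ranged over 95.3, 108 and 114 CPM in LM and over 90.9, 102 and 112 CPM in LM-LM. Ccne2 was thus higher in the Myc310 lineage in every library, with log2 fold changes of 0.58 ± 0.093 for Myc310, 0.63 ± 0.068 for LM and 0.54 ± 0.068 for LM-LM (SE; edgeR adjusted p between 3.04e-09 and 6.04e-06). With counts summed per line its edgeR adjusted p was 0.0646, 0.0074 and 0.0122, so that the call in Myc310 was lost.

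**Figure D4:**
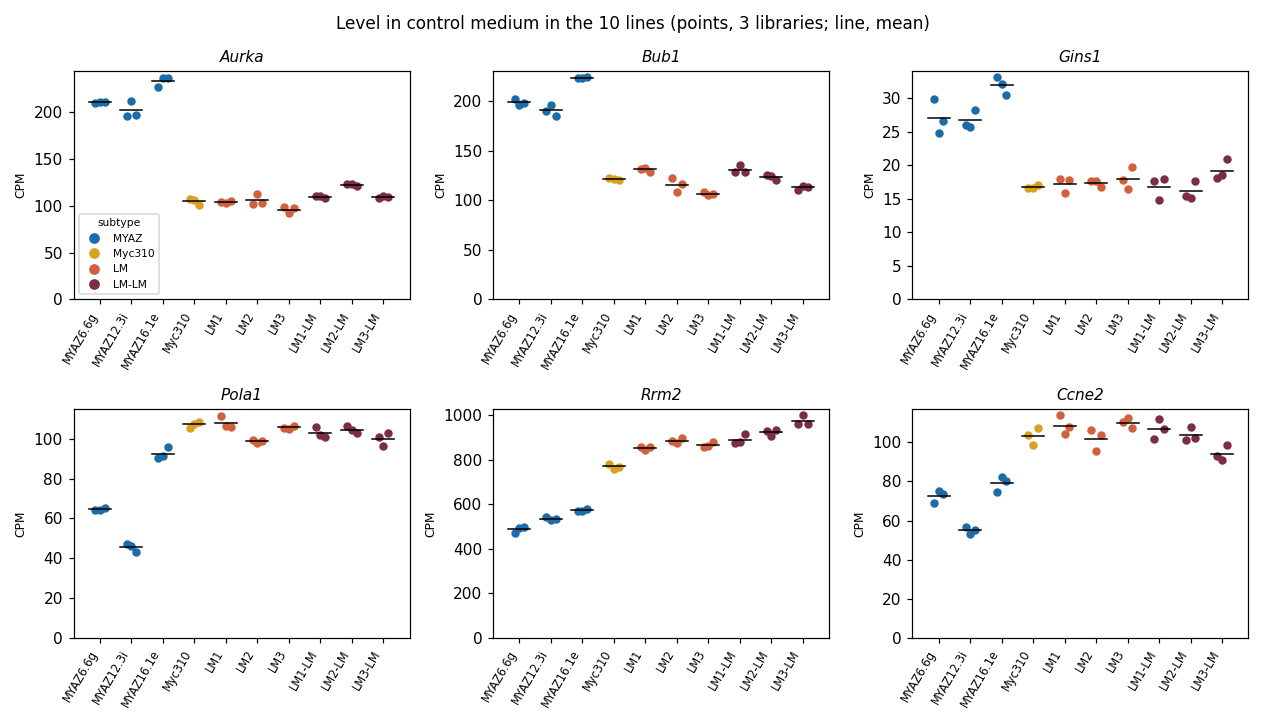
CPM (vertical axis, from 0) of 6 members in the 3 control libraries (points) of each of 10 lines, coloured by subtype, with the line mean as a bar. Aurka, Bub1 and Gins1 are lower and Rrm2 and Ccne2 higher in every library of Myc310, LM and LM-LM than in MYAZ, and Pola1 varies from 45.4 to 92.4 CPM among the MYAZ line means.

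In the further lists, 36 of 53 mitotic genes were lower and 4 higher in Myc310, 39 and 2 in LM, and 38 and 3 in LM-LM, Nusap1 among the lowest at -1.12, -1.32 and -1.30 on the log2 scale. Of 43 further replication genes, 7 were lower and 16 higher in Myc310, 8 and 19 in LM, and 11 and 17 in LM-LM, with log2 differences of 0.78, 0.66 and 0.65 for Pola2, a partner of POLA1. Those of Cdkn1a were 1.76, 2.58 and 2.63. Marker sums differed too, between lines of a subtype as well as between subtypes. The summed level of 8 epithelial markers was 339 to 1175 CPM over the MYAZ libraries, 1383 to 1400 CPM in Myc310, 1105 to 2144 CPM in LM and 1016 to 2464 CPM in LM-LM, and that of 8 fibroblast markers 7.46 to 98.1, 1.73 to 2.16, 15.1 to 125 and 34.1 to 217 CPM. Of the fibroblast markers, Dcn, Lum and Thy1 were under 1 CPM throughout, whereas Col3a1 reached 199 CPM in LM3-LM and Pdgfra 50.2 CPM in MYAZ12.3i. The sum of the 6 leukocyte markers measured (of 7) was 4.17 to 6.36, 9.55 to 10.4, 9.43 to 17.5 and 12.34 to 19.7 CPM, and that of the 5 endothelial markers measured (of 6) 3.57 to 7.08, 0.434 to 0.704, 0.0938 to 0.953 and 0.258 to 0.670 CPM. The 5 alveolar markers measured (of 6) summed to 1.75 to 6.56, 0.750 to 1.03, 0.587 to 6.67 and 0.387 to 3.37 CPM. The part of the marker genes in these differences was not tested.

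Among the 10 lines, levels of a member in control medium spread by unequal amounts. The line means of Aurka spread 2.43-fold and those of Pola1 2.38-fold, whereas those of Cdc45 spread 1.13-fold and those of Mcm3 1.19-fold. LM3 had the lowest line mean for 11 of the 14 mitotic members, and the highest was in MYAZ16.1e for 6 and in MYAZ6.6g for 5. Of the replication members, 11 were lowest in MYAZ12.3i and 10 highest in MYAZ16.1e.

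In MYAZ12.3i-NDI1, replication members were slightly higher than in MYAZ12.3i, both in control medium. Of the 28, 18 were higher and none lower (by edgeR or DESeq2, with 1 lower at an unadjusted p under 0.05), where 8.14% of 12841 genes were called higher, 9.27% lower and 17.4% in either direction. The median log2 fold change was 0.13, against 0.00 over all genes. Of the 14 mitotic members Aurkb was higher (0.14 ± 0.034, SE, edgeR adjusted p = 0.0116) and none lower, also by DESeq2 and at an unadjusted p under 0.05, with a median of 0.05. NDI1 is a yeast gene and its own level was not analysed here. The counts depend on few cultures: without replicate 1, 2 or 3, 8 or 9 replication members were called and at most 1 mitotic member, and 12 replication members were called without the second MYAZ12.3i library or with DESeq2, all higher. Fewer of all genes were called as well, 6.94%, 8.04% and 10.4% without the 3 replicates in turn, 11.3% without that library and 1506 of 12207 genes with DESeq2.

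Cdc6 was at 51.3, 45.9 and 46.8 CPM in MYAZ12.3i and at 61.7, 63.9 and 61.6 CPM in the NDI1 line, a log2 fold change of 0.37 ± 0.047 (SE; edgeR adjusted p = 1.22e-04). It was the largest change, past the threshold in all alternatives run. Gins2 was at 21.3, 18.7 and 20.1 CPM and 24.2, 26.3 and 25.2 CPM, a change of 0.33 ± 0.066 (SE; edgeR adjusted p = 0.00336), which reached an adjusted p of 0.0698 in 1 of the alternatives. Neither gene's libraries overlapped, which held for 21 replication and 6 mitotic members, all higher, and for 18.0% (higher) and 16.7% (lower) of all genes. Gins1 (0.30) and Pola1 (0.25) followed, and Mcm5, Mcm6 and Rrm2 had values of 0.00, -0.01 and -0.02. Of the further lists, 14 of 43 replication genes were higher and none lower, and 15 of 53 mitotic genes were higher and 2 lower. Marker sums differed as well: the 8 epithelial markers summed to 339 to 352 CPM in MYAZ12.3i and 368 to 380.2 CPM in the NDI1 line, the 8 fibroblast markers to 93.9 to 98.1 and 103 to 107 CPM, and the 5 endothelial markers to 6.64 to 7.08 and 5.04 to 5.46 CPM. These 3 sums did not overlap between the lines, whereas those of the leukocyte markers (4.17 to 5.37 and 2.85 to 4.51 CPM) and alveolar markers (4.89 to 6.56 and 4.32 to 4.90 CPM) did, and their part in the differences was not tested. The differences of the members are small beside those of deprivation, and NDI1 comes as 1 line.

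**Figure D5:**
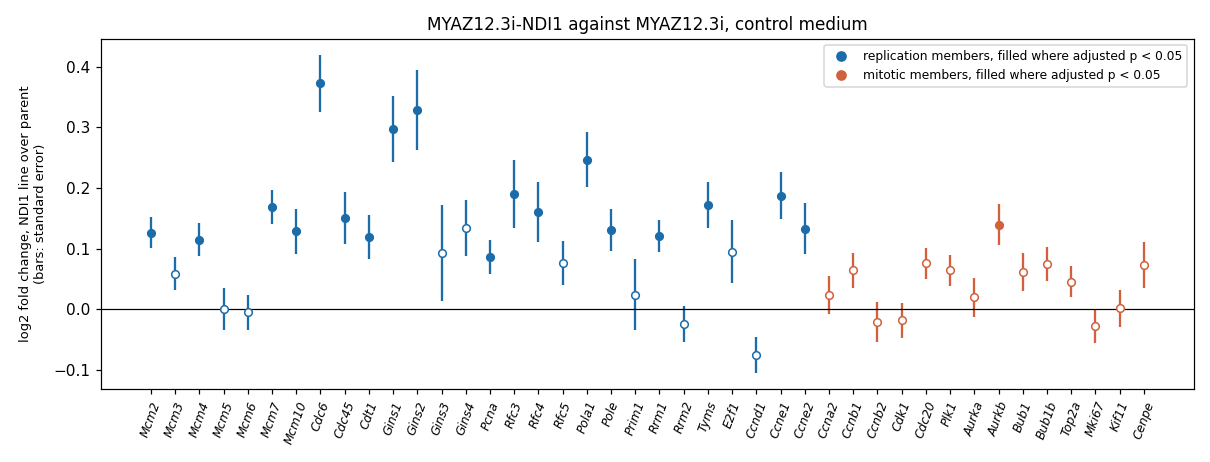
Log2 fold change (vertical axis, MYAZ12.3i-NDI1 over MYAZ12.3i, control medium) of the 28 replication (blue) and 14 mitotic members (red), with standard errors as bars and filled points past the threshold. Of the replication members 18 are filled, all above 0 and led by Cdc6 at 0.37, and of the mitotic members Aurkb is.

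Positions of the members and their neighbours limit some values. Cdc6 lies on chromosome 11 at 98907801-98923940, Ccne1 on chromosome 7 at 38097984-38107534, Gins3 on chromosome 8 at 95633453-95645060, Aurka on chromosome 2 at 172356190-172370535 and Cenpe on chromosome 3 at 135212537-135273611 (GRCm38). No other gene of the annotation overlaps these 5. Pcna, Tyms, Ccnb1 and Ccnb2 have named pseudogenes, and Mcm7, Cdt1, Pola1, Pole, Rrm1, Top2a and Kif11 overlap another annotated gene on their own strand, so their counts may hold reads shared with these.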

How the data were processed

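RNA of 45 cultures was sequenced as polyadenylated, strand-specific, paired-end libraries. Per the labels and methods, the authors aligned reads with STAR to GRCm38 and quantified genes with RSEM, and the deposited counts are whole numbers per gene, not normalized. The authors' processing notes also list DESeq2 (1.38.3) and R (4.2.2).

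From these counts, edgeR (4.0.16, R 4.3.3) quasi-likelihood tests were run with TMM factors, filterByExpr and Benjamini-Hochberg adjustment over all genes tested, with a threshold of 0.05. Deprived and control cultures of 4 lines shared 1 model of 24 libraries, subtypes 1 of 30, and the NDI1 comparison used 6. The scripts were tested on simulated data. CPM are counts scaled to library size with TMM factors over all 45 libraries. Alternatives used other scalings, filters, DESeq2 (1.42.0) and limma (3.58.1), counts summed per line, and fits leaving out replicates or lines. Named genes were all members, 15 of them and those with the 2 largest rises or falls per comparison with values by library, and the 2 largest rises and falls of each other list. Members and lists were chosen with earlier results of these data known. Of the listed genes 3 were not used here, and 1 other is not reported here.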

Additional observations from a re-analysis of the deposited data

Results flagged for a closer look

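By edgeR's test of the difference itself, the deprivation response differed from that of MYAZ16.1e for 15, 21 and 21 of 28 replication members and for 12, 13 and 13 of 14 mitotic members in Myc310, LM1 and LM1-LM, where 40.3%, 52.2% and 54.8% of all genes differed. These differences share the MYAZ16.1e libraries. The values of 8 of them, chosen after the values were seen, are given here, and each of the 8 differed in all 3 lines. For Ccne1 the log2 differences in Myc310, LM1 and LM1-LM were -0.91, -1.30 and -1.35. For Mcm6 the log2 differences in Myc310, LM1 and LM1-LM were -0.32, -0.59 and -0.62. For Gins3 the log2 differences in Myc310, LM1 and LM1-LM were 0.80, 0.86 and 0.94. For Gins4 the log2 differences in Myc310, LM1 and LM1-LM were -0.33, -0.35 and -0.22. For Aurka the log2 differences in Myc310, LM1 and LM1-LM were 0.69, 1.16 and 1.30. For Ccnb1 the log2 differences in Myc310, LM1 and LM1-LM were 0.58, 0.97 and 1.14. For Cenpe the log2 differences in Myc310, LM1 and LM1-LM were 0.51, 0.86 and 1.00. For Top2a the log2 differences in Myc310, LM1 and LM1-LM were 0.56, 0.87 and 0.90.

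Between LM1 and Myc310, from which LM1 was derived, 10 replication and 11 mitotic members differed, as did 24.5% of all genes, and of these 8 genes Ccne1 (-0.40), Mcm6 (-0.27), Aurka (0.47), Ccnb1 (0.38), Cenpe (0.35) and Top2a (0.31) did. Between LM1-LM and LM1 the 2 members that differed were Ccnb1 (0.17) and Cenpe (0.13).

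In control medium, 1 of 126 tests for a library apart from its group was past the critical value, where chance gives about 1 in 20 for independent libraries. The 9 libraries of a subtype are 3 cultures of each of 3 lines and are not independent. Plk1 was at 172.6 CPM in the first LM1 control library, and the next of the 9 LM libraries was at 183.3 CPM.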

How the results depend on the processing

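Of 6888 values of single members under alternatives, 6478 kept their side of the threshold without a called value changing direction, 272 lost and 113 gained the threshold, and 25 reversed. Of the 6478, 132 changed sign without passing in either fit, and 6346 kept the sign. For the 4 deprivation responses the total of members called in either direction moved by no more than 1.5 times. Those called higher moved by more in LM1 and LM1-LM: 3 replication members in LM1 became 1 without the third replicates, and with upper-quartile scaling the mitotic members called higher numbered 5 in LM1 (8 with TMM) and 7 in LM1-LM (11 with TMM). With that scaling 31.6% of all genes were called higher in LM1 (35.8% with TMM) and 32.0% in LM1-LM (36.5% with TMM). The causes of the changes below were not tested.

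The response of LM1 against Myc310 had 6 to 11 replication members past the threshold when a replicate number was left out (10 with all). The response of LM1-LM against LM1 had 2 mitotic members, 1 with RLE factors, with no filter or with only the libraries compared, and 0 to 2 in fits leaving out libraries. Of all genes, 0.769% were called there, and 0.881%, 0.884% and 0.64% with RLE factors, no filter and only the libraries compared. In the fits leaving out libraries 0.0298% to 0.756% were called. The replicate numbers did not pair the cultures (same-number correlations of deviations from the group means between -0.05 and 0.05). With the replicate number as a block the count of mitotic members for LM1-LM against LM1 was 1 (0.694% of all genes called), and no other count of members moved by over 1.5 times.

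In control medium, summing counts per line left 2, 7 and 5 replication and 3, 7 and 7 mitotic members in Myc310, LM and LM-LM (8.92%, 23.6% and 26.4% of all genes called). limma with line as a random block left 12 replication members in LM (34.5% of all genes called) and 7 mitotic members in LM-LM (36.6%). Leaving out 1 line or library gave 9 to 17 replication members in Myc310. Over the fits leaving out 1 MYAZ line, 48.7% to 56.8% of all genes were called there. With MYAZ16.1e as the only MYAZ line, 21 replication and 12 mitotic members were called in Myc310, where 71.2% of all genes were called.

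Reversed values were the difference of Bub1b in LM1-LM with upper-quartile scaling (-0.081), and differences in control medium. Without MYAZ16.1e, Aurkb was at 0.15 in Myc310 and 0.034 in LM-LM, and Mcm10 at 0.20 in LM-LM. When lines or libraries were left out in turn, Mcm10 in LM-LM ranged from -0.17 to 0.20 and Mcm2 from -0.18 (without LM3-LM) to 0.17. With MYAZ16.1e as the only MYAZ line, Myc310 had Cdc6 at -0.13, Mcm10 at -0.37 and Rfc5 at -0.13. LM1 then had Mcm2 at -0.28, Mcm5 at -0.15, Prim1 at -0.0098, Mcm10 at -0.26, E2f1 at -0.13, Gins4 at -0.15, Gins3 at -0.0055, Ccnb2 at 0.22, Rfc3 at -0.14 and Ccnd1 at 0.014. LM1-LM had Mcm2 at -0.30, Cdc6 at -0.0052, Prim1 at -0.015, Rfc5 at -0.094, Gins4 at -0.16, Ccnb2 at 0.23 and Ccnd1 at 0.078.

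For NDI1, mitotic calls were 2 with at least 10 counts in every library (19.0% of all genes called), 3 in a fit of all 33 control libraries (18.5%) and at most 1 when a replicate number was left out. Replication calls were 8 or 9 when a replicate number was left out and 12 without the second MYAZ12.3i library. The lowest count of a member in a library was 142, and no member was lost to the filter on low counts. Whether depth limited members of low level was not tested. The number of cultures and lines, with Myc310 and NDI1 as 1 line each, limits the precision.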
